A study of Mus musculus with 24 samples.

Results

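Undifferentiated HC11 cells in which all splice forms of *mPINC* were targeted (siPINC −LH) were compared with cells given a negative control siRNA (siNEG −LH). These groups were chosen by their titles and hold 4 of the 24 arrays of the series, 2 per group. HC11 is an established line of mouse mammary epithelium that goes back, through the COMMA-D line, to the gland of a pregnant Balb/c female. Its growth medium held EGF (10 ng/ml) and also insulin. Both groups received 10 nM siRNA with Lipofectamine RNAiMAX and no lactogenic hormones (−LH), and RNA was taken 5 days later. The siPINC group received siRNAs #1 and #3, which together cover all *mPINC* splice forms, and the siNEG group received Silencer Select Negative Control #1. The other knockdown of the study, siPINC1.0/1.6, combined siRNAs #1 and #2, so the pairs share 1 siRNA, and both were also given to cells treated with hydrocortisone, insulin and prolactin (+LH). Each culture's RNA (50 ng) was amplified with a Cy3 label and read on a 1-colour Agilent mouse array. The study describes the −LH arrays as biological duplicates. No array of mock-transfected or untransfected cells was used here, so a lower level in siPINC cells and a raised level in siNEG cells cannot be told apart, and in bulk RNA fewer cells of a type and less RNA per cell cannot be told apart either.

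*mPINC* is a long noncoding RNA of the mammary epithelium that is high in the pregnant gland and declines as alveolar cells begin to secrete milk. It associates with polycomb repressive complex 2 (PRC2), the complex that places a repressive methyl mark on histones. HC11 cells divide as undifferentiated epithelium until they are confluent and given lactogenic hormones, and then produce milk proteins such as beta-casein. The comparison without hormones asks which transcripts differed after *mPINC* knockdown before that switch.

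The siRNA target was lower in both knockdown cultures. The *mPINC* probe (A_55_P2179186) had normalized log2 signals of 7.41 and 7.48 in the siNEG arrays and of 6.39 and 6.16 in the siPINC arrays. The groups did not overlap, and *mPINC* was 2.24-fold lower in siPINC cells (log2 fold change −1.17, standard error 0.106, limma with Benjamini-Hochberg adjusted p = 0.147). Between 26989 and 28409 of 55681 probes were well above background on these 4 arrays, no spot was saturated, and the arrays of a group correlated at r = 0.990 across probes in siNEG and in siPINC cells. All arrays without hormones were on the same slide. Epithelial markers were present in every array: *Krt8*, a luminal keratin, was at 12.96 and 13.22 in siNEG and at 12.82 and 12.83 in siPINC cells, and *Epcam*, an epithelial adhesion protein, was at 12.30 and 12.22 against 11.98 and 11.96. None of the 11 epithelial identity genes passed the test, although 8 had a negative log2 fold change (median −0.09) and in 7 both siPINC arrays lay below both siNEG arrays, which happened for 23.6% of all genes. The endothelial markers *Cdh5*, *Tie1*, *Tek*, *Emcn* and *Esam* and the adipocyte hormone *Adipoq* were at background in both groups. Other members were detected: 2 of the 8 endothelial and 1 of the 6 adipocyte markers were above background on both arrays of a group. Mean levels of the 8 leukocyte markers were 5.74 to 5.85 in siNEG and 6.06 to 6.23 in siPINC arrays, with probes for *Cd3e*, *Itgam*, *Adgre1* and *Csf1r* above background in both groups and the common leukocyte antigen *Ptprc* above background on 1 of the 4 arrays. Mean levels of the 8 fibroblast markers were 5.76 to 5.85 in siNEG and 5.97 to 6.02 in siPINC arrays, with *Lum* and *Thy1* not above background. The other 6 were above background on both arrays of a group. Of the 8 markers, 4 had a positive and 4 a negative log2 fold change, with a median of 0.06. The 1 called was *Col3a1*, with the largest value (1.85), so the higher mean does not describe every marker. The part of these other cell types in the results was not tested.

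A probe was called higher or lower, by the study's thresholds, at an unadjusted limma p under 0.01 and a fold change over 1.8. By this rule 554 of 55681 probes (0.995%) were called, 288 higher (0.517%) and 266 lower (0.478%). In all 554 the siPINC and siNEG arrays did not overlap, so that separation adds no support to a called gene. No probe passed a limma adjusted p of 0.05, where the lowest value was 0.0900, and 5391 probes had an unadjusted p under 0.05. In a limma fit of all 24 arrays, which shares the estimate of the spread across the series, 815 probes (1.46%) passed an adjusted p of 0.05, 379 higher and 436 lower, and the methods' t-test left 2 probes after adjustment. The called probes had a median log2 fold change of 1.25 where higher and of −1.13 where lower, beside 0.00 for all probes. Only 186 of the 554 were well above background on both arrays of a group, 116 higher and 70 lower, and 319 were above background on no array of the comparison. With 1 array left out at a time, the call count rose to 1291 and 895 without siNEG replicate 1 or 2, and to 1135 and 969 without siPINC replicate 1 or 2. The calls carried 257 gene symbols, 147 higher and 110 lower, and 281 probes had no symbol here. With 1 probe per gene symbol, 226 of 20165 genes (1.12%) were called, 129 higher (0.64%) and 97 lower (0.481%). These shares are the background for the counts of list members. All lists and their members were chosen with earlier results of these data known, so such counts are descriptive.

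Interferon-stimulated genes were lower in siPINC than in siNEG cells. These genes encode antiviral effectors and their regulators. They are switched on when interferon receptors, through Stat2 and Irf9, bring the factor ISGF3 to a promoter element, the interferon-stimulated response element, whose core can be written as 2 GAAA blocks set 2 bases apart. The list was chosen with earlier results of these data known, so its counts are no independent support. Of 24 genes measured, 7 were lower by the call rule and 0 higher, beside 0.481% of all genes called lower. All 24 had a negative log2 fold change, from −2.18 (*Rsad2*, a fitted value, since only a limit holds for its size) to −0.03, with a median of −0.67. The siNEG and siPINC arrays did not overlap in 23 of the 24 genes, which happened in the same direction for 23.6% of all genes. In the fit of 24 arrays, 14 of them were lower at a limma adjusted p of 0.05, beside 0.783% of all probes. The mean log2 level of the 24 genes was 8.32 and 8.40 in the siNEG arrays and 7.59 and 7.62 in the siPINC arrays.

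The response element is shown for the called interferon genes whose promoters hold it. Its part in the lower signals was not tested. A search of RefSeq promoters (GRCm38.p6, 250 bases before to 50 bases after the start) for GAAANNGAAA on either strand found it in 3.44% of 32851 promoters and in 3.99% of 27025 genes. Of the 21 interferon genes with a promoter in the table, 13 held it, among them 5 of the 7 called genes and 8 of the 14 others. Each line gives 30 bases on the gene's strand with the motif, or its reverse complement, in capitals.

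*Ifit1*, chr19:34640775-34640804, plus strand: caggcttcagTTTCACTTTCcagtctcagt
*Ifit1*, second copy, chr19:34640794-34640823, plus strand: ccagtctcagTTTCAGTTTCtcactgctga
*Ifit3*, chr19:34583363-34583392, plus strand: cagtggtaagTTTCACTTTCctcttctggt
*Isg15*, chr4:156200871-156200900, minus strand: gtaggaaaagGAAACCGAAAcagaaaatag
*Oas1a*, chr5:120907520-120907549, minus strand: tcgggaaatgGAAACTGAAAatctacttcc
*Rsad2*, chr12:26456553-26456582, minus strand: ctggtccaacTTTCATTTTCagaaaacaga

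In *Ifit1* the copies lay 104 to 95 and 85 to 76 bases before the start. In *Ifit3* the match shown lay 156 to 147 bases before the start, and a further match, not shown, lay 122 to 113 bases before it. In *Isg15* the match shown lay 72 to 63 bases before the start and overlapped other matches. In *Oas1a*, where matches also overlapped, the one shown lay 14 to 5 bases before the start. The windows of *Oasl1* and *Oasl2* held no match to these letters.

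*Ifit1*, which encodes a protein that binds viral RNA, had log2 signals of 7.67 and 7.61 in siNEG and of 6.18 and 6.08 in siPINC arrays. It was 2.84-fold lower (log2 fold change −1.51, standard error 0.102), and its relative *Ifit3* fell from 5.88 and 6.11 to 5.03 and 5.02 (log2 fold change −0.97). *Isg15*, a ubiquitin-like protein that is attached to other proteins during the interferon response, had 12.73 and 12.89 in siNEG and 11.93 and 11.88 in siPINC arrays, a log2 fold change of −0.90 with a standard error of 0.077. For these 3 genes both siPINC arrays lay below both siNEG arrays, as for every probe called lower. *Rsad2*, the antiviral enzyme viperin, was at 4.47 and 4.83 in siNEG cells and not well above background in siPINC cells, at 2.90 and 2.04. It was at least 1.61-fold lower. Such a limit sets the mean signal of the brighter group against a floor for the dimmer group, which on each array is the larger of the signal measured there and the dimmest signal that the array still marked as well above background. Where a log2 difference of a probe at background in a group is printed, it is the fitted value of the model and no measured size.

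The oligoadenylate synthetase family, which senses double-stranded RNA, gave the other 3 calls. *Oas1a* had 10.61 and 11.05 in siNEG and 9.79 and 9.70 in siPINC arrays (log2 fold change −1.08, standard error 0.169). *Oasl2* had 7.65 and 7.80 against 6.46 and 6.95 (−1.02, standard error 0.212). *Oasl1* had 8.39 and 8.43 against 7.53 and 7.49 (−0.90, standard error 0.054). As for every probe called lower, no siPINC array reached a siNEG array, and *Oasl1* varied least between arrays of a group.

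The regulators of the response moved less or varied more. *Irf7*, the factor that amplifies interferon production, had a log2 fold change of −1.06, and *Irf9*, the DNA-binding subunit of ISGF3, had −0.66. *Usp18*, which removes Isg15 from proteins, had −1.16, and the double-stranded RNA sensor *Ifih1* had −0.68. None of these 4 passed the call rule. Values for *Stat2* (−0.13), the RNA sensor *Ddx58* (−0.14), *Irf1* (−0.13) and *Ifit2* (−0.13) lay close to 0, as did *Gbp2* at −0.03. The chemokine *Cxcl10*, induced by interferon gamma, had −0.38. The difference therefore ran over most of the list but was not of one size.

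How many of the 24 were called depended on single arrays. The count was 5 without siNEG replicate 1 and 4 without siNEG replicate 2, without siPINC replicate 1 or without siPINC replicate 2, while the median stayed between −0.71 and −0.67. *Ifit1* and *Oasl1* kept their calls with any 1 array left out. *Isg15* lost its call without siNEG replicate 2 (−0.83), and *Ifit3* lost it without siPINC replicate 1 (−0.98) or 2 (−0.96). *Oas1a* lost it without either siPINC array (−1.13 and −1.04) or either siPINC1.0/1.6 array (−1.08 each), which enter only through the shared spread. *Rsad2* lost it without siNEG replicate 1 (−2.36), siNEG replicate 2 (−2.0) or siPINC replicate 2 (−1.75), and *Oasl2* without siNEG replicate 1 (−1.09), siNEG replicate 2 (−0.95), siPINC replicate 1 (−0.78) or either siPINC1.0/1.6 array (−1.02 each). With normexp background correction 3 of the 24 were called and the median was −0.47.

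**Figure D1:**
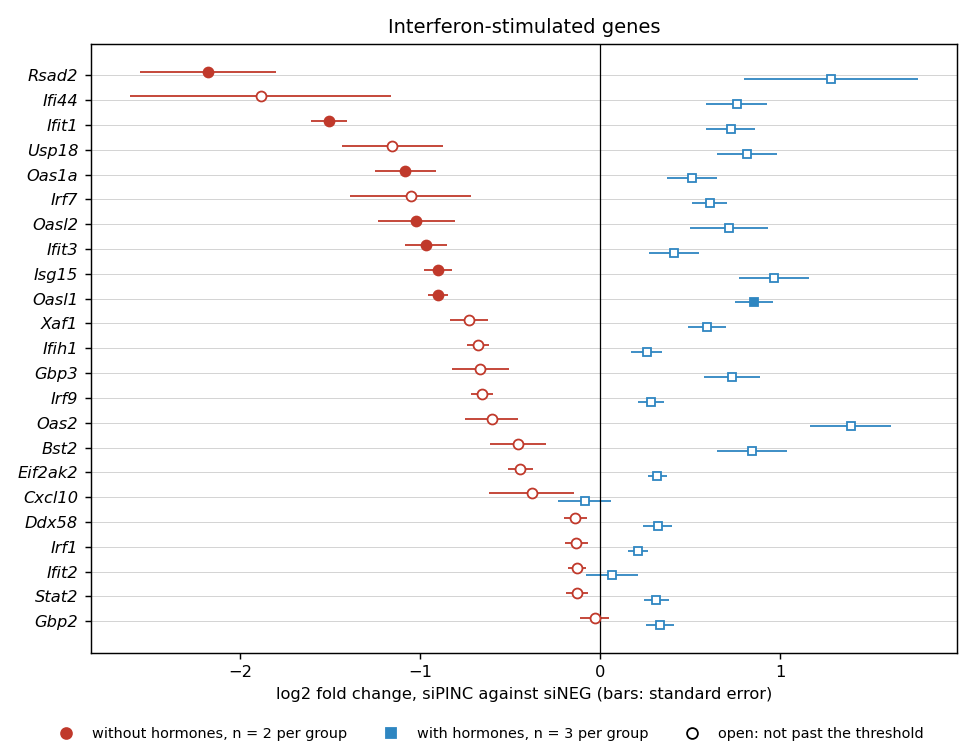
Log2 fold change of siPINC against siNEG cells for 23 of the interferon-stimulated genes, with standard errors, in cells without hormones (circles, 2 arrays per group, filled for the 7 genes past an unadjusted p of 0.01 and 1.8-fold) and with hormones (squares, 3 arrays per group, filled for *Oasl1*, past an adjusted p of 0.05). All circles lie below 0 and 22 of the squares lie above 0.

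Genes of antigen presentation, many of which also respond to interferon, had smaller differences of the same sign. All 12 had a negative log2 fold change, with a median of −0.38, and in 9 the siPINC arrays lay wholly below the siNEG arrays, which happened for 23.6% of all genes. The 1 called member was *Nlrc5*, the transactivator of class I genes, measured at background on all 4 arrays (4.01 and 3.97 in siNEG, 2.21 and 2.00 in siPINC), so no fold is given. The immunoproteasome subunit *Psmb9* had −0.76, the peptide transporter subunits *Tap2* and *Tap1* had −0.70 and −0.48, the nonclassical class I gene *H2-T23* had −0.54, and beta-2 microglobulin (*B2m*) had −0.01. In the fit of 24 arrays 5 of the 12 were lower at a limma adjusted p of 0.05, beside 0.783% of all probes. Without siPINC replicate 2 the number called was 3.

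Among the largest falls outside the list was another interferon-inducible gene, *Ifi27l2a*, with 8.80 and 9.52 in siNEG and 7.67 and 7.72 in siPINC arrays (log2 fold change −1.47, standard error 0.255). The chemokine *Ccl5* was lower as well, at 9.11 and 9.23 against 8.43 and 8.10 (−0.91, standard error 0.136). In both genes the siPINC arrays lay below the siNEG arrays, as for every probe called lower. *Ifi27l2a* lost its call without either siPINC array (−1.44 and −1.49) or either siPINC1.0/1.6 array (−1.47 each), and *Ccl5* without siNEG replicate 1 (−0.96), siNEG replicate 2 (−0.85) or siPINC replicate 2 (−0.74).

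Secreted proteins of the milk and of epithelial defence were among the genes that rose. *Pip*, which encodes prolactin-induced protein, had log2 signals of 11.51 and 11.48 in siNEG and of 13.24 and 13.15 in siPINC arrays. It rose 3.25-fold (log2 fold change 1.70, standard error 0.060), and with 4 other probes it held the lowest limma adjusted p of the comparison, 0.0900. *Ltf*, the iron-binding milk and neutrophil protein lactotransferrin, had 7.81 and 7.51 in siNEG and 8.92 and 9.18 in siPINC arrays, a rise of 2.63-fold (1.39, standard error 0.149). Neither gene overlapped between the groups, which held for every called probe. These were the 2 called among 13 milk protein genes, beside 0.64% of all genes called higher. Of the 13, 4 were above background on no array. *Csn3*, kappa-casein, had 0.40, and beta-casein (*Csn2*) and whey acidic protein (*Wap*) were not well above background in either group. None of the 20 genes of milk fat synthesis was called, with a median of −0.07.

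The list of acute phase and defence genes had 3 of 21 members called higher, beside 0.64% of all genes, and 0 lower. Its median log2 fold change was 0.40 and 18 members were positive. *Serpina3f*, a serine protease inhibitor of the antichymotrypsin cluster, had 5.05 and 4.83 in siNEG and 6.86 and 6.64 in siPINC arrays, a rise of 3.49-fold (1.8, standard error 0.140). Its relative *Serpina3g* was not well above background in either group (1.88 and 1.90 in siNEG, 3.72 and 3.97 in siPINC). *Serpina3* genes are a family of near copies, so these probes may share targets. The third member was *Ltf*. Complement *C3* had 0.90 and serum amyloid *Saa3* had 1.52, neither past the call rule, while the neutrophil proteins *Lcn2* and *S100a8* had 0.03 and −0.26. *Chil1*, a chitinase-like protein, had −0.81, with 7.19 and 6.94 in siNEG and 6.38 and 6.12 in siPINC arrays. It missed the fold threshold and passed it without siNEG replicate 2 (−0.94).

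Of 26 chemokines and cytokines, 3 were called higher and 2 lower, beside 0.64% and 0.481% of all genes, with a median of 0.08. *Ccl9*, a monocyte chemoattractant, had 7.11 and 7.03 in siNEG and 8.22 and 8.35 in siPINC arrays and rose 2.32-fold (1.21, standard error 0.072). *Il33*, an epithelial alarmin, was at 4.44 and 4.35 in siPINC cells and not above background in siNEG cells (1.87 and 3.01), at least 1.25-fold higher. Its call was kept under only 3 of 17 alternative settings. *Tslp* was called although not above background in either group (2.26 and 2.35 against 3.18 and 3.20). *Cxcl14*, an epithelial chemokine, fell from 6.44 and 6.82 to 5.27 and 5.42 (−1.28, standard error 0.255), and *Ccl5* was the other fall. The neutrophil chemokine *Cxcl1* had −0.03, *Cxcl5* 0.38, *Il6* 0.17 and *Csf3* −0.29. *Cxcl14* lost its call without any of the 4 arrays (−1.47 and −1.10 without a siNEG array, −1.21 and −1.36 without a siPINC array), as did *Tslp* (0.84 and 0.93, 0.89 and 0.87). *Il33* lost it without a siPINC array (1.91 and 2.00) or a siPINC1.0/1.6 array (1.96 each).

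Transcripts of the extracellular matrix and a keratin were among the other rises. Of 37 matrix genes 2 were called, both higher, beside 0.64% of all genes, with a median of 0.14. *Col3a1*, a fibrillar collagen, had 8.13 and 8.57 in siNEG and 10.20 in both siPINC arrays, a rise of 3.61-fold (1.85, standard error 0.179). *Tnc*, the matrix glycoprotein tenascin C, had 6.10 and 6.44 against 7.95 and 8.02, a rise of 3.28-fold (1.71, standard error 0.141). Each gene's siPINC arrays lay above its siNEG arrays, as for every probe called higher. *Lox*, which cross-links collagen, was not above background in siNEG cells (2.99 and 2.86) and at 4.71 and 4.93 in siPINC cells, at least 1.68-fold higher. Its other probe was called too, likewise with both siNEG arrays at background. *Adamts9*, a secreted metalloprotease, was likewise measured in siPINC cells only, at 4.51 and 4.76 (2.90 and 1.88 in siNEG), at least 1.48-fold higher. It lost its call without a siPINC array (2.37 and 2.11) or a siPINC1.0/1.6 array (2.24 each).

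Other collagens gave no common direction. *Col1a1*, the main collagen of fibroblasts, had −0.47, its partner *Col1a2* had 0.52, and *Col6a1* and *Col6a2* had 0.57 and 0.70. *Sparc* and *Acan* had −0.40 and −0.56. None of these 6 passed the call rule. No gene among 18 matrix proteases was called, although their median was 0.26 and the groups were separate with siPINC higher in 13 of them, which happened for 22.9% of all genes. *Krt6a*, a keratin of activated epidermis, had 9.98 and 10.05 in siNEG and 11.44 and 11.39 in siPINC arrays and rose 2.64-fold (1.40, standard error 0.097). It was the 1 call among 20 cornified envelope and keratinocyte genes, with *Krt6b* at 0.68, *Tgm1* at 0.50, *Sprr1a* at 0.41 and *Krt16* at −0.02.

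Several signalling genes that the study had named from these arrays were called. They were chosen on these samples, so their direction is not independent evidence. Of the 24 study genes, *mPINC* and the PRC2 subunits included, 6 were higher and 1, *mPINC* itself, was lower. *Igfbp2*, an insulin-like growth factor binding protein, had 11.03 and 11.26 in siNEG and 12.29 and 12.28 in siPINC arrays and rose 2.20-fold (1.14, standard error 0.094). *Wnt4*, the Wnt ligand of ductal side branching, had 10.08 and 10.22 against 11.03 and 10.96, a log2 fold change of 0.85 (standard error 0.089). *Dlk2*, a noncanonical Notch ligand, had 8.87 and 9.05 against 9.96 and 9.87, a rise of 1.94-fold (0.95, standard error 0.095). *Edn1*, the peptide ligand endothelin, was not above background in siNEG cells (3.89 on both arrays) and at 5.0 and 5.06 in siPINC cells, at least 1.94-fold higher. *Pip* and *Ltf* were the others. *Wnt4* lay at the fold threshold and lost its call without siNEG replicate 1 (0.78) or siPINC replicate 1 (0.81).

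The pathways around these ligands showed few other calls. *Wif1*, a secreted inhibitor that binds Wnt proteins, was the clearest, with 5.17 and 5.14 in siNEG and 7.14 and 6.82 in siPINC arrays, a rise of 3.53-fold (1.82, standard error 0.154). The groups were far apart beside the spread within each. The Wnt target *Axin2* and the Notch target *Hes1* were called lower, but neither probe was well above background in either group (*Axin2* 3.49 and 3.81 against 2.00 and 2.13, *Hes1* 3.10 and 3.32 against 2.24 and 2.48). Among 20 Wnt genes *Wnt4* and *Axin2* were the calls, and among 20 Notch genes *Dlk2* and *Hes1*, beside 1.12% of all genes. *Ednra*, the endothelin receptor, had 0.24, and the Notch pathway ubiquitin ligase *Mib2* had −0.24. In the TGF-beta list *Gdnf*, a neurotrophic ligand, was the 1 call of 21, at 5.03 and 4.43 in siNEG and 6.02 and 5.86 in siPINC arrays (1.21, standard error 0.226). The calls of *Axin2* and *Hes1* were lost without any 1 of the 4 arrays (*Axin2* −1.74, −1.42, −1.52 and −1.65, *Hes1* −0.96, −0.74, −0.73 and −0.97), and that of *Gdnf* without a siPINC array (1.13 and 1.29) or a siPINC1.0/1.6 array (1.21 each).

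**Figure D2:**
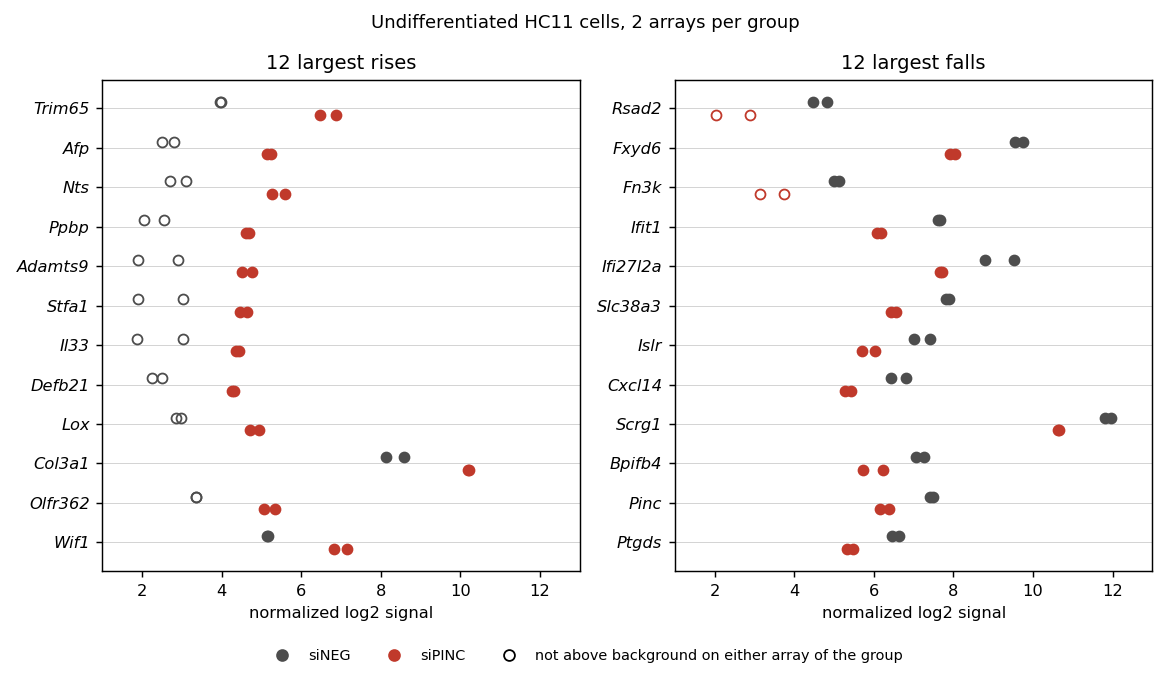
Normalized log2 signal (x axis) on each siNEG (grey) and siPINC (red) array without hormones for the 12 largest rises and the 12 largest falls by fitted value, drawn as open circles where both arrays of the group were at background. The groups do not overlap because the genes were chosen so, 10 of the rises start from below background, and *Rsad2* and *Fn3k* end there.

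Most of the largest rises began below background. In siNEG cells 10 of the 12 largest had both arrays at background, so that only a limit can be given. *Trim65*, a ubiquitin ligase, was at 3.98 and 3.95 in siNEG and at 6.46 and 6.86 in siPINC arrays, at least 6.03-fold higher. On the other 22 arrays of the series its probe lay between 3.10 and 4.94, and a second *Trim65* probe, not above background in either group, had 3.45 and 3.63 against 3.58 and 3.55. The fetal plasma protein *Afp* was at 5.24 and 5.13 in siPINC cells (2.80 and 2.51 in siNEG), at least 2.17-fold higher. The neuropeptide *Nts* was at 5.59 and 5.26 (3.11 and 2.70), at least 2.55-fold higher. *Ppbp*, a platelet chemokine, at 4.68 and 4.61, was at least 1.49-fold higher. The cysteine protease inhibitor *Stfa1*, one of a family of near copies, was at 4.63 and 4.47 and at least 1.39-fold higher, and the beta-defensin *Defb21*, at 4.30 and 4.25, was at least 1.15-fold higher. *Olfr362*, an olfactory receptor gene, was at 5.06 and 5.34 and at least 2.19-fold higher. *Stfa1* lost its call without a siPINC array (fitted differences 2.02 and 2.18) or a siPINC1.0/1.6 array (2.10 each), values that rest on siNEG signals at background. In the fit of 24 arrays 8 of these 12 rises and all 12 of the largest falls passed a limma adjusted p of 0.05. Over all probes 1.46% did. The 24 genes were chosen on the same siPINC and siNEG arrays, which favours passing there, so these counts are no independent support. In the fit without hormones the limma adjusted p of the 24 lay between 0.139 and 0.317.

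The largest falls outside the interferon genes were measured in both groups with 1 exception. *Fxyd6*, a regulator of the sodium pump, had 9.74 and 9.54 in siNEG and 8.04 and 7.92 in siPINC arrays and was 3.17-fold lower (−1.66, standard error 0.125). *Slc38a3*, a glutamine transporter, had 7.88 and 7.82 against 6.57 and 6.44 and was 2.54-fold lower (−1.35, standard error 0.069). *Scrg1*, a small secreted protein first found raised in scrapie, had 11.97 and 11.81 against 10.62 and 10.66 and was 2.37-fold lower (−1.25, standard error 0.108). In these 3 genes the difference was many times the spread between arrays, and the call was kept under all 17 alternative settings. *Islr*, an immunoglobulin-domain protein of stroma, fell from 7.0 and 7.40 to 6.03 and 5.70 (−1.34). *Bpifb4* fell from 7.27 and 7.05 to 5.72 and 6.22 (−1.19), and *Ptgds*, the prostaglandin D synthase, from 6.62 and 6.47 to 5.48 and 5.33 (−1.14). *Fn3k*, a kinase that removes sugar from glycated proteins, was at 5.12 and 5.0 in siNEG and not above background in siPINC arrays (3.74 and 3.14), at least 2.13-fold lower. Its second probe was not called. Of these calls, that of *Islr* was lost without siNEG replicate 2 (−1.14) or siPINC replicate 2 (−1.17), *Fn3k* without siNEG replicate 1 (−1.55), siNEG replicate 2 (−1.68) or siPINC replicate 2 (−1.32), *Ptgds* without any of the 4 arrays (−1.06, −1.22, −1.21 and −1.07), and *Bpifb4* without siNEG replicate 1 (−1.08), siNEG replicate 2 (−1.30), siPINC replicate 1 (−0.94) or either siPINC1.0/1.6 array (−1.19 each).

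No subunit or partner of PRC2 was called at the transcript level. The 11 genes had a median of −0.02 and ran from −0.27 to 0.08. The methyltransferase *Ezh2* had 11.41 and 11.38 in siNEG and 11.33 and 11.36 in siPINC arrays (−0.05, standard error 0.053), *Eed* had −0.03, *Suz12* −0.01, and the histone-binding proteins *Rbbp4* and *Rbbp7* had 0.08 and 0.02. The groups overlapped in *Suz12*, at 10.62 and 10.54 against 10.50 and 10.63. Among 12 genes near *mPINC* on the same chromosome, *Igfbp2* was the 1 call. *Igfbp5*, another binding protein of the same cluster, had −0.15, fibronectin (*Fn1*) had 0.30 and the DNA repair subunit *Xrcc5* had 0.27.

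Of 35 gene lists, 17 had no called member. The 523 genes measured in all lists gave 30 calls, 16 higher and 14 lower, beside 0.64% and 0.481% of all genes. Proliferation genes had a median of 0.02 over 28 genes, from −0.39 to 0.28. Basal epithelial genes (15, median 0.01), cholesterol synthesis (18, median −0.04), p53 targets (16, median −0.06), the integrated stress response (16, median −0.05), ERK feedback genes (19, median −0.05) and glycolysis genes (17, median −0.02) had no call, as had integrins (16) and mesenchymal genes (13). The 10 genes of the RNA interference machinery, into which siRNAs are loaded, had a median of −0.04 and no call. In the NRF2 and drug metabolism list the 1 call of 19 was *Akr1c18*, a progesterone-inactivating reductase, with 7.81 and 7.60 in siNEG and 9.05 and 9.07 in siPINC arrays, a rise of 2.55-fold (1.35, standard error 0.105). The 1 call among 10 luminal progenitor genes, *Aldh1a3*, was not above background in either group (3.66 and 3.96 against 2.30 and 2.04) and was lost without any of the 4 arrays (−1.79, −1.49, −1.77 and −1.51).

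**Figure D3:**
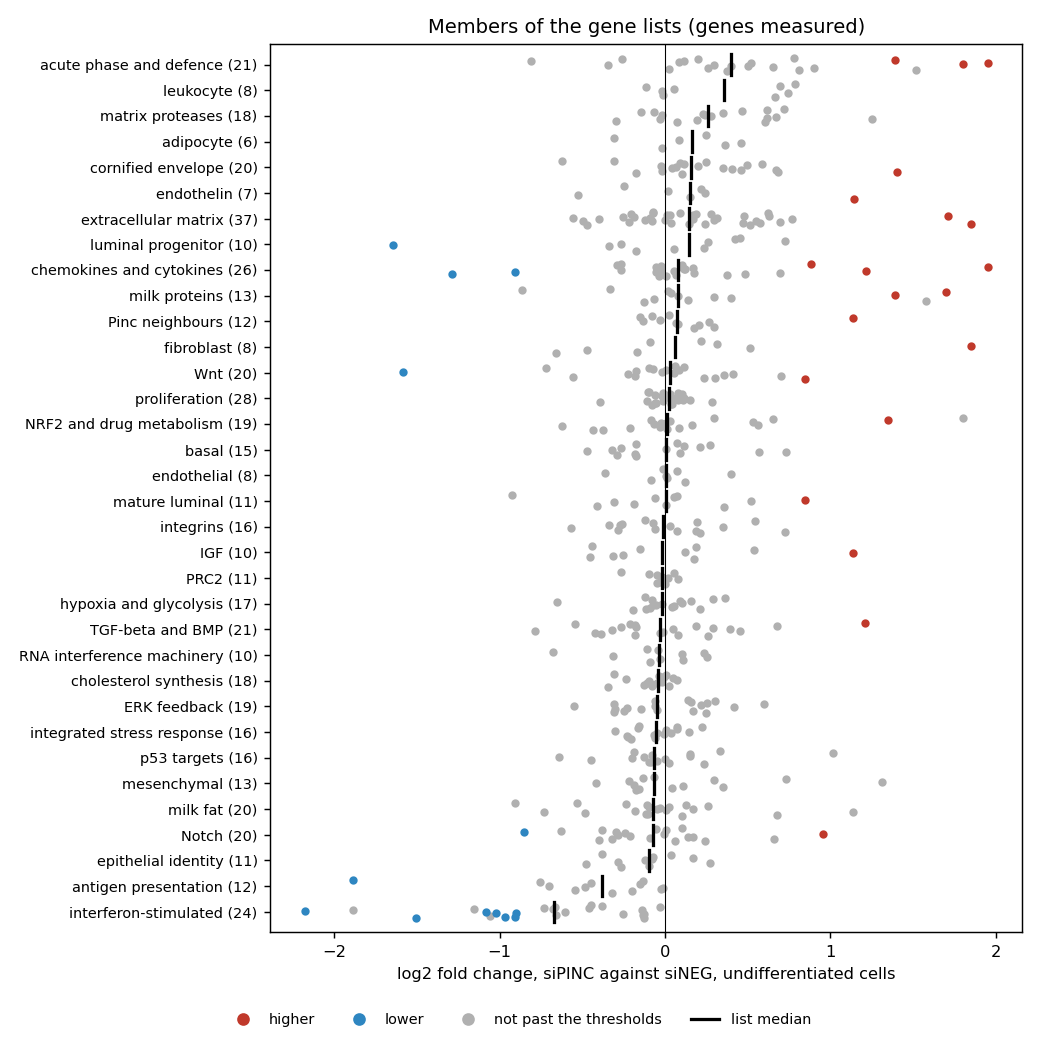
Log2 fold change of siPINC against siNEG cells without hormones for each measured member of 34 gene lists, with called members in colour and a bar at the list median. The interferon list lies lowest (median −0.67, 7 of 24 called) and the acute phase list highest (median 0.40, 3 of 21 called).

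The 2 knockdowns without hormones share the siNEG arrays, so they were compared with each other by their direct contrast. It called 816 probes (1.47%), 402 higher (0.722%) and 414 lower (0.744%) in siPINC cells, and 10 (0.018%) at a limma adjusted p of 0.05. Of the 554 probes called in siPINC cells, 171 also passed in the direct contrast. The 554 were chosen on the same siPINC arrays, which favours passing there, so this count is no independent support. Their median log2 fold changes in siPINC1.0/1.6 cells, against the shared siNEG arrays, were 0.86 for the higher and −0.90 for the lower probes. The *mPINC* probe was at 6.27 and 6.39 in siPINC1.0/1.6 cells, and its direct difference was −0.06 (standard error 0.106), less than its error.

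*Pip* was at 11.48 and 11.52 in siPINC1.0/1.6 cells, a log2 fold change of 0.00 against siNEG, and was higher by 1.70 in siPINC cells in the direct contrast (standard error 0.060, limma adjusted p = 0.0472). *Col3a1* was at 6.78 and 6.99 in siPINC1.0/1.6 cells, with log2 fold changes against siNEG of 1.85 in siPINC and −1.46 in siPINC1.0/1.6 cells and a direct difference of 3.32. *Trim65* (4.03 and 3.53), *Il33* (2.19 and 2.45) and *Defb21* (2.15 and 1.90) were not above background in siPINC1.0/1.6 cells, and *Oasl1* (8.80 and 8.77) lay above its siNEG level there, with a direct difference of −1.27. All of these genes passed the thresholds in the direct contrast, which uses the siPINC arrays that they were called on. Of the 24 interferon genes, 4 were lower in siPINC than in siPINC1.0/1.6 cells, beside 0.744% of all probes, and their median against siNEG was −0.40 in siPINC1.0/1.6 cells.

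Other genes moved further in siPINC1.0/1.6 cells. *Serpina3f* (8.88 and 8.67), *Gdnf* (8.04 and 7.90), *Edn1* (6.94 and 6.65), *Akr1c18* (10.60 and 10.44) and *Ccl9* (9.13 and 9.15) were all higher there, with direct differences (siPINC minus siPINC1.0/1.6) of −2.03, −2.03, −1.77, −1.46 and −0.86. Similarly *Scrg1* (8.90 and 9.12) and *Slc38a3* (5.24 on both arrays) were lower there, with direct differences of 1.63 and 1.26. Of 26 chemokines and cytokines, 12 were lower and 3 higher in siPINC than in siPINC1.0/1.6 cells. Of 21 acute phase genes, 9 were lower and 0 higher. Over all probes 0.744% were lower and 0.722% higher in this contrast. For *Cxcl1*, *Cxcl5*, *Il6* and *Csf3*, which were not called in siPINC cells, the log2 fold changes in siPINC1.0/1.6 cells were 2.02, 2.83, 1.34 and 3.59. *Igfbp2* (12.09 and 12.10) and *Ltf* (8.67 and 8.60) lay at levels that did not pass the thresholds in the direct contrast, with differences of 0.19 (standard error 0.094) and 0.41 (standard error 0.149).

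**Figure D4:**
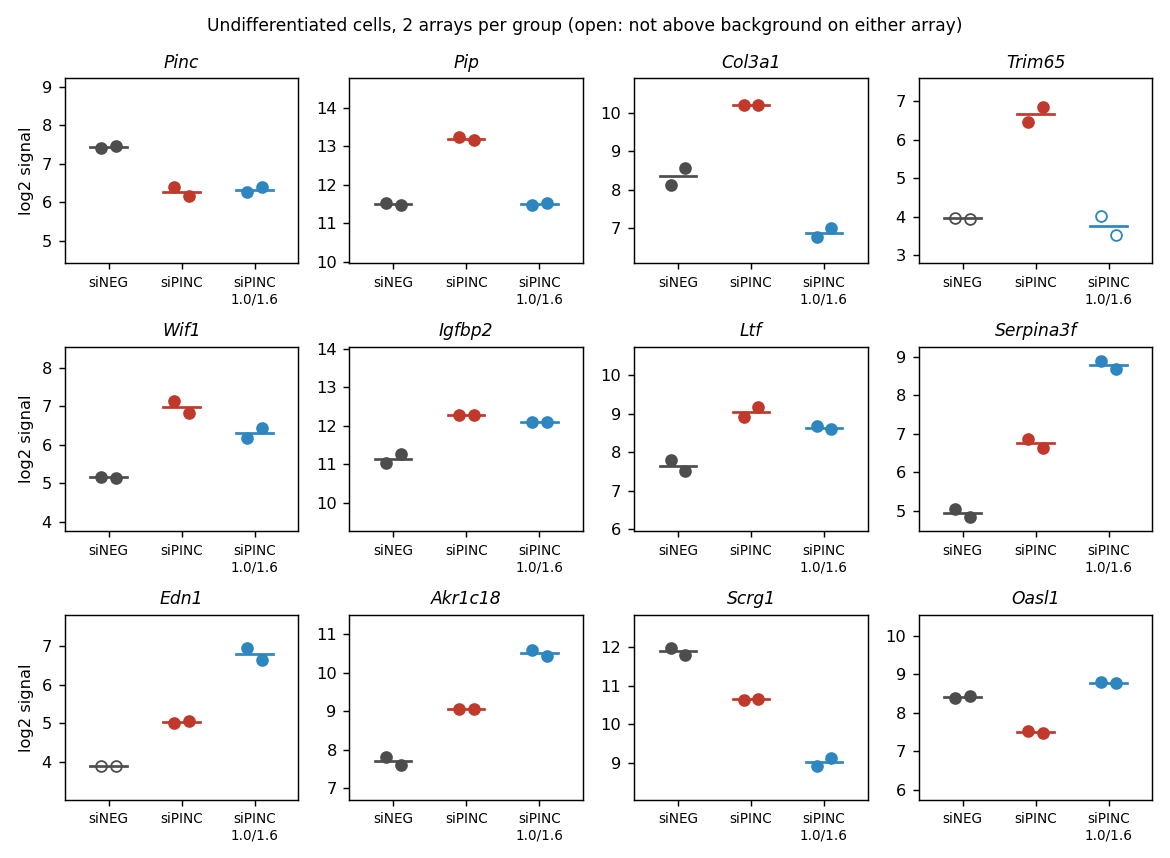
Log2 signal of 12 genes on each array of the 3 groups without hormones, with group means as lines, open circles where both arrays of a group were at background, and a y axis of the same span in every panel. *Pip*, *Col3a1* and *Trim65* are high in siPINC cells alone, *Serpina3f*, *Edn1* and *Akr1c18* are highest in siPINC1.0/1.6 cells, and *mPINC* lies between 6.16 and 6.39 in both knockdowns.

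The same siPINC pair was also given to hormone-treated cells, measured on separate arrays with 3 cultures per group, where 379 probes (0.681%) passed a limma adjusted p of 0.05. The *mPINC* probe was dim there, at 4.96, 4.93 and 4.72 in siNEG and at 4.76, 4.20 and 4.15 in siPINC cells. It was above background on 2 siNEG arrays and 1 siPINC array. Its log2 fold change was −0.50 (standard error 0.187, limma adjusted p = 0.428), so the size of the knockdown with hormones is poorly known. Of the 554 probes called without hormones, 62.1% had the same sign with hormones, beside 57.4% of all probes, and 33 passed the adjusted p in the same direction and 1 in the opposite direction. The called probes moved little with hormones, with a median log2 fold change of 0.12 for those that were higher and −0.07 for those that were lower without hormones. The difference between the siPINC effects with and without hormones passed an adjusted p of 0.05 for 280 probes (0.503%), 65 of them among the 554. The 554 were chosen on the arrays without hormones, which enter this difference, so their number here is favoured by that choice. Slide moves with these groups: siNEG +LH replicate 1 shared the slide of the arrays without hormones, and the other 2 siNEG and all 3 siPINC arrays with hormones lay on another. Slide therefore overlaps in part with hormone state and with the siPINC contrast with hormones. Without that siNEG array, when the hormone-treated arrays compared were all of 1 slide, 173 probes passed the interaction term, 60.6% of the 554 had the same sign, and the interferon genes had a median of 0.63 with hormones, 22 of 24 of them positive and 14 past the interaction term. In a fit of all 24 arrays 398 probes passed the interaction term, and 432 when a slide term was added.

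*Ltf* and *Krt6a* were higher in siPINC cells in both states. *Ltf* had 9.64, 9.63 and 9.65 in siNEG and 10.97, 10.77 and 10.98 in siPINC cells with hormones (1.27, limma adjusted p = 0.00573). *Krt6a* had 7.85, 8.0 and 8.32 against 9.92, 9.87 and 9.70 (1.77, limma adjusted p = 0.00665). For both genes every siPINC array lay above every siNEG array, as it did without hormones. *Pip* was far brighter in hormone-treated cells, at 16.09, 16.03 and 16.17 in siNEG and 16.46, 16.44 and 16.47 in siPINC cells, with a smaller log2 fold change of 0.36 (limma adjusted p = 0.0358).

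Interferon genes had the opposite sign with hormones. Of the 24, 22 were higher in siPINC than in siNEG cells there, with a median of 0.55, although *Oasl1* alone passed a limma adjusted p of 0.05 (5.19, 5.55 and 5.36 in siNEG, 6.22, 6.12 and 6.32 in siPINC, log2 fold change 0.85, adjusted p = 0.0275). The difference between the siPINC effects was positive for all 24 and passed an adjusted p of 0.05 for 13 of them, beside 0.365% of all probes. With normalization to the 75th percentile 2 of the 24 passed, with the series matrix values 1 and with the replicate block 3. A fit of all 24 arrays gave 17, and 19 when a slide term was added. With 1 hormone-treated array left out the number lay between 6 (without siPINC +LH replicate 3) and 14. It was 7 without siNEG +LH replicate 2 or siPINC +LH replicate 1. The sign held under every scaling, and in 23 of the 24 genes without siPINC −LH replicate 2. Proliferation genes, of which none was called without hormones, had a median of 0.58 with hormones, where 17 of 28 passed the adjusted p as higher, beside 0.551% of all probes, and the difference between the effects passed for 8.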

How the data were processed

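The authors hybridised 24 1-colour Agilent arrays, 6 of them of cells without hormones, and deposited for each array the Feature Extraction 11.0.1.1 intensities: the processed signal, background-subtracted and detrended within the array but not normalized between arrays, the median signals, and the flags for outlier, saturated and well above background spots. The authors also deposited a log2 table that had been quantile normalized with the control spots included, which was used as an alternative.

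For the 59305 spots per array that are not controls, log2 processed signals were quantile normalized over the 24 arrays, outlier spots (146 to 208 on the 4 arrays compared) were left out, and spots were averaged into 55681 probes. Dim probes were kept. Groups follow the sample labels. Group means of the 6 arrays without hormones were fitted by lmFit, contrasts.fit and eBayes of limma 3.58.1 (R 4.3.3), in place of the two-sided t-test of the study, and p-values were adjusted by Benjamini-Hochberg over all probes. The hormone-treated siRNA arrays were fitted separately, and the difference of the siPINC effects by an interaction term over 15 arrays. The script was tested on simulated data. Precision is limited by the number of arrays, and p-values measure the spread between these cultures.

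Symbols came from the study's tables (455 probes) or from the RefSeq accession of the probe (26155), with 29071 probes unnamed, and 0 columns of sample values were left unused. The genes named are the study's genes, the 12 largest rises and 12 largest falls among called probes that have a symbol, lie well above background on both arrays of a group and do not overlap between groups, the called members of 35 gene lists, and the cell type markers. *Ifi27l2a* and the other largest changes are shown by the probe with the largest change, list members by the probe that is brightest over the 24 arrays. Uncalled list members were picked for their role, with their values known. 570 of 577 list entries matched a gene. Members and lists were chosen with earlier results of these data known.

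Same-numbered arrays deviated together at r = 0.050, 0.133 and 0.093 over 25075 probes, so the numbers were not taken to pair cultures. The alternatives were 75th percentile normalization, quantile normalization of the 6 arrays, normexp correction with an offset of 50 on median signals, bright probes only, the methods' t-test, a trended and robust prior, fits of the 4 arrays, of all 24 arrays and with a slide term, a replicate block, the deposited log2 table, and leaving out each array. Python 3.11.15 with pandas 2.3.3, numpy 2.4.6, scipy 1.17.1 and matplotlib 3.10.9 was used for summaries and figures. The siRNA and probe sequences are not shown, and the single values of some list members are not reported here.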

Additional observations from a re-analysis of the deposited data

Results flagged for a closer look

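For 15 of the named genes the siPINC effect differed between cells with and without hormones at a limma adjusted p of 0.05 in the interaction term. The values are the log2 effect with hormones minus that without. Most of these genes were named for their effects on the arrays without hormones, which enter the difference. That choice favours a difference of the opposite sign. Interferon-stimulated genes had positive differences, of 2.23 for *Ifit1*, 1.38 for *Ifit3*, 1.59 for *Oas1a*, 1.76 for *Oasl1* and 1.87 for *Isg15*. *Isg15* had 13.27, 12.52 and 12.92 in siNEG and 13.90, 13.81 and 13.90 in siPINC cells with hormones, and *Ifit1* had 8.91, 8.62 and 8.70 against 9.35, 9.49 and 9.57, the reverse of their order without hormones. *Fxyd6* had a difference of 1.75, with hormone-treated levels of 6.27, 6.80 and 6.54 in siNEG and 6.55, 6.68 and 6.64 in siPINC cells, which overlap. *Scrg1* had 0.84, being lower in siPINC cells in both states.

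Genes that rose without hormones had negative differences, the sign that their choice favours. These were −1.34 for *Pip*, −1.56 for *Wif1*, −0.86 for *Dlk2*, −0.77 for *Ccl9* and −0.74 for *Edn1*. *Edn1* was at background on both siNEG arrays without hormones, so its value is a fitted one and no measured size. *Clu*, which was not called without hormones, had −0.57. For *Pip* the hormone-treated siNEG signal was between 16.03 and 16.17. *Afp* had −2.24 and *Axin2* 1.53, but no hormone-treated array of siNEG or siPINC cells was well above background for either, nor was any siNEG or siPINC array without hormones for *Axin2*, and *Afp* was at background in siNEG cells without hormones. Of these 15 genes, 3 passed the interaction term with 75th percentile normalization, 9 with normexp, 4 with the replicate block and 2 with the series matrix values, and between 7 (without siPINC +LH replicate 3) and 13 with 1 array left out. These counts were added after the data were seen.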

How the results depend on the processing

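The 554 calls became 44 with normexp correction, 226 among bright probes, 224 by the methods' t-test, 318 with a trended and robust prior and 199 with the series matrix values, and 580 to 1291 with 1 array left out. Probes past an adjusted p of 0.05 numbered 0 as reported, 181 with normexp, 2 among bright probes, 2 by the t-test, 103 with the trended prior, 815 in the fit of 24 arrays, 902 with a slide term and 0 to 153 with 1 array left out. The 816 direct calls became 163 with normexp, 509 among bright probes, 372 by the t-test and 410 with the series matrix values (852 to 1483 with 1 array left out). The 280 interaction calls became 7 with the 75th percentile, 427 among bright probes, 451 with the trended prior, 432 with a slide term and 4 with the series matrix values (105 to 656 with 1 array left out). *mPINC* (the *Pinc* probe) kept its sign but missed the thresholds with normexp (−0.81) and by the t-test (−1.17), and lay between −1.28 and −1.05 with 1 array left out. The share of called probes with the same sign with hormones, 62.1%, was 77.3% with normexp, 73.0% among bright probes and 51.9% to 62.5% with 1 array left out. With the replicate block 551 probes were called, 787 in the direct contrast, and 29 in the interaction in place of 280. The slide term was added to the fit of all 24 arrays, which without it gave 398 in the interaction. The cause of these moves was not tested. Over the 64 other named genes, 590 of 696 values kept direction and side of the thresholds, 106 fell short of a threshold and 0 reversed, and with 1 array left out 309 of 384 kept both, 74 fell short, 1 newly passed and 0 reversed. Normexp was hardest on the largest changes, of which 8 of 23 still passed, and 75th percentile normalization moved the median of all probes to −0.07. By the t-test 0 of the 37 extracellular matrix genes were called. Levels near background limit 319 of the 554 calls. Counts of list members and of genes past the interaction under each setting were added after the data were seen.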
